A study of Mus musculus with 6 samples.

Results

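Expression of 10 genes of the NRF2 antioxidant programme and of iron storage was followed in primary mouse dermal fibroblasts: Fth1, Ftl1, Hmox1, Slc7a11, Gclc, Gclm, Gstm1, Nqo1, Txnrd1 and Srxn1. They were taken by symbol from the deposited expression matrix, which held all 10 of the 10 symbols among its 13706 genes, and all 10 passed the filter on low values. Control cells had the genotype Yap1 fl/fl; Wwtr1 fl/fl and no Cre, so that both floxed genes stayed intact. YAP/TAZ knockout (KO) cells carried R26-CAG-CreER, a tamoxifen-dependent Cre at the ROSA26 locus under the ubiquitous CAG promoter, with the same floxed alleles. The last group held KO cells with 1 µM H-151, an inhibitor of the DNA-sensing adaptor STING. All 3 groups, control included, received 1 µM 4OH-Tamoxifen for 72 hr, and each had 2 libraries made by QuantSeq, which reads the 3' end of polyadenylated transcripts. Loss of YAP and TAZ and presence of Cre cannot be told apart here, and H-151 was given only to KO cells. Whether both libraries of a group derive from different cultures or mice is not in the labels, and the p-values cover the spread between libraries only, which may be technical.

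NRF2, encoded by Nfe2l2, is a transcription factor that KEAP1 holds low by directing its degradation. Electrophiles and oxidants modify KEAP1, NRF2 then accumulates, pairs with small MAF proteins and binds antioxidant response elements (AREs) near genes for glutathione synthesis, thioredoxin recycling, quinone reduction and iron handling, while BACH1 occupies many of the same elements as a repressor. Ferritin, a shell of heavy (Fth1) and light (Ftl1) chains, stores iron in a form that does not feed radical chemistry, and heme oxygenase 1 (Hmox1) frees iron from heme. Slc7a11 answers both to NRF2 and to ATF4, the factor of amino acid shortage, which binds CCAAT enhancer binding protein-ATF response elements (CAREs).

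The promoters of Srxn1 and Slc7a11 are shown because their RNA moved in opposite directions under H-151. They also hold the most matches to those elements (3 each) among the 8 genes that could be searched. RefSeq promoters of GRCm38.p6, each 300 bases long (250 before and 50 after the start), were available for 8 of the 10 genes as 12 windows. Hmox1 and Gclc had none and were not searched. Capitals mark matches to the ARE core TGACNNNGC or TGAGNNNGC, or to the CARE TGATGNAA, searched on both strands. The Srxn1 stretch, chr2:152105354-152105499 on the plus strand, runs from 170 to 25 bases before the start and holds 2 ARE matches, and another stands 29 bases after the start. The Slc7a11 stretch, chr3:50443641-50443722 on the minus strand, runs from 109 to 28 bases before the start and holds 1 ARE match followed by 2 CARE matches.
Srxn1: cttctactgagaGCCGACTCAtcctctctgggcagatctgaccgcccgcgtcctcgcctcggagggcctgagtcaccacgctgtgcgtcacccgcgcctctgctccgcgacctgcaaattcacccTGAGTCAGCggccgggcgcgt
Slc7a11: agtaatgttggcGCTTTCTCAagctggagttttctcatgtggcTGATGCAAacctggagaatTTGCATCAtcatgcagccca
An ARE core stood in 4 of the 12 windows (Srxn1, Slc7a11, Gclm and Txnrd1) and in 27.8% of all 32851 mouse promoters. The 12 windows stand for only 8 genes and reach only 250 bases before the start. They therefore cannot show whether AREs set these genes apart. A CARE stood in the Slc7a11 window alone among the 12 and in 3.97% of all promoters. These matches describe letters, not bound sites.

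The libraries held 12444986 to 15308100 reads in listed genes, and levels are in CPM computed with an effective library size (scaled CPM). Wwtr1 fell from a mean of 215.8 in control to 4.91 in KO and 3.54 in KO + H-151, and Yap1 from 124.7 to 67.4 and 43.9. All 10 fibroblast markers (among them Col1a1, Pdgfra and Vim) were present. Their summed level was 34658 to 35237 in control cells, 39533 to 41617 in KO cells and 25794 to 27628 with H-151. The higher sum in KO is not a rise of every marker. Over control, Col1a2 and Col1a1 rose from 13002 and 7409 to 15990 and 9475.5, and Lum rose too. None of these rises kept the call with each library left out. Pdgfra fell in KO from 156 to 68.1, and the other 6 did not pass the test. The fibroblast markers did not move as one: over KO, Col1a1, Col1a2, Col3a1, Fn1, Vim and Pdgfrb fell with H-151 while Pdgfra, Dcn, Lum and Thy1 rose, and 4 of these 6 falls and 1 of the 4 rises (Pdgfra) kept the call with each library left out. Markers of other cell types moved with H-151 too. The 15 macrophage markers in the table summed to 1342 to 1561 in control cells, 1670 to 1675 in KO cells and 3426 to 4193 with H-151, all 15 passed the test upward under H-151, and Cd163 was not among the rows. The 8 adipocyte markers in the table (Lep and Retn were not among the rows) summed to 1459 to 1714, 1279 to 1473 and 3382 to 4602 in the same order, and all 8 rose. Of 8 keratinocyte markers only Krt10 was a row. The 7 endothelial markers in the table summed to 18.2 to 19.9 in control cells, 12.7 to 13.8 in KO cells and 20.3 to 23.1 with H-151. Of these, 4 fell and Kdr rose in KO against control, and 4 rose with H-151 over KO. The KO calls of Kdr and Egfl7 and the H-151 calls of Egfl7 and Vwf were not kept with each library left out. Levels were low, with a KO mean of 0.30 scaled CPM for both Pecam1 and Emcn. The 9 melanocyte and Schwann cell markers in the table were highest in KO, summing to 132 to 142, 369 to 405 and 101 to 119.8, and 7 smooth muscle and pericyte markers summed to 3418 to 3757, 3811 to 4062 and 2535 to 3191. The part of these cell types in the results below was not tested, and in bulk RNA fewer cells of a type and less RNA per cell cannot be told apart.

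**Figure D1:**
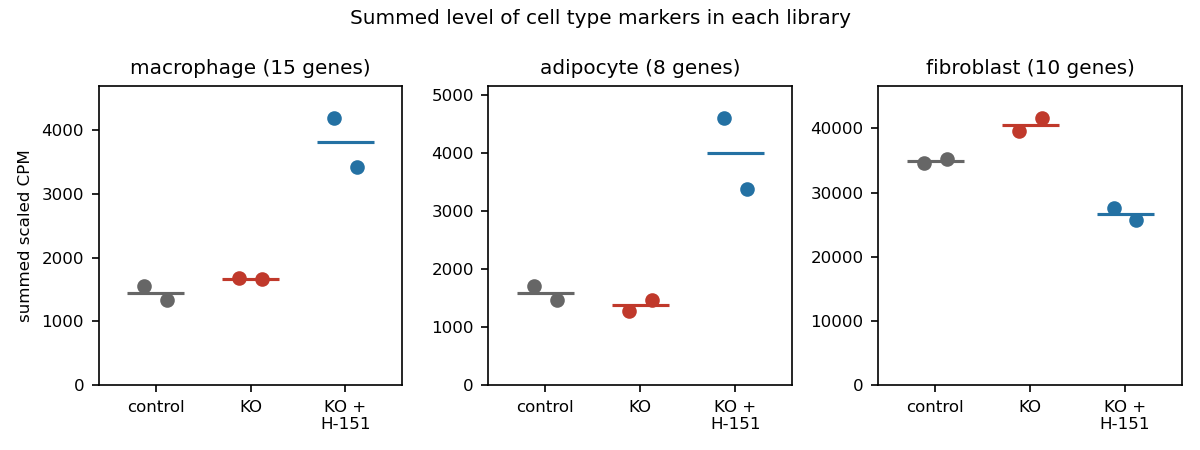
Summed scaled CPM of macrophage (15 genes), adipocyte (8) and fibroblast (10) markers, with 1 point per library and a line at the group mean. Both KO + H-151 libraries lie above all others for macrophage and adipocyte markers and below all others for the fibroblast sum, in which 6 markers fell and 4 rose over KO.

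In KO against control 3 of the 10 genes passed the test, a share near that of all genes, and 9 passed in KO + H-151 against KO. In KO against control Slc7a11 and Hmox1 rose, Gclm fell and 7 did not pass the test (limma, Benjamini-Hochberg adjusted p under 0.05 over all 13648 genes tested), against 18.2% of all genes that rose and 14.2% that fell. With H-151 added to KO cells 8 genes rose, Slc7a11 fell and Hmox1 did not pass, where 19.4% of all genes rose and 21.4% fell. Against control, KO + H-151 cells had 9 genes higher and Slc7a11 lower, where 11.5% of all genes were higher and 11.4% lower. The median log2 difference of the 10 genes was -0.13 in KO against control, 0.65 in KO + H-151 against KO and 0.50 in KO + H-151 against control, and that of all genes was -0.01, 0.02 and 0.00. The first 2 comparisons share the KO libraries, the first and the last share the control libraries, and the last 2 share the KO + H-151 libraries.

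The KO comparison depended on the scaling. Of the genes called there, 56.2% were higher with the deposited scaling, 45.9% with median scaling, 39.1% with quantile normalization and 29.9% with total-count scaling, as the median of all genes went from -0.01 to -0.06, -0.10 and -0.16. In KO + H-151 against KO the share higher was 47.5% as deposited, 61.9% with quantile normalization and 71.2% with total-count scaling, and the median of all genes reached 0.10 and 0.18. The median of the 10 genes went from -0.13 to -0.29 in the KO comparison with total-count scaling and from 0.65 to 0.82 in the H-151 comparison.

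**Figure D2:**
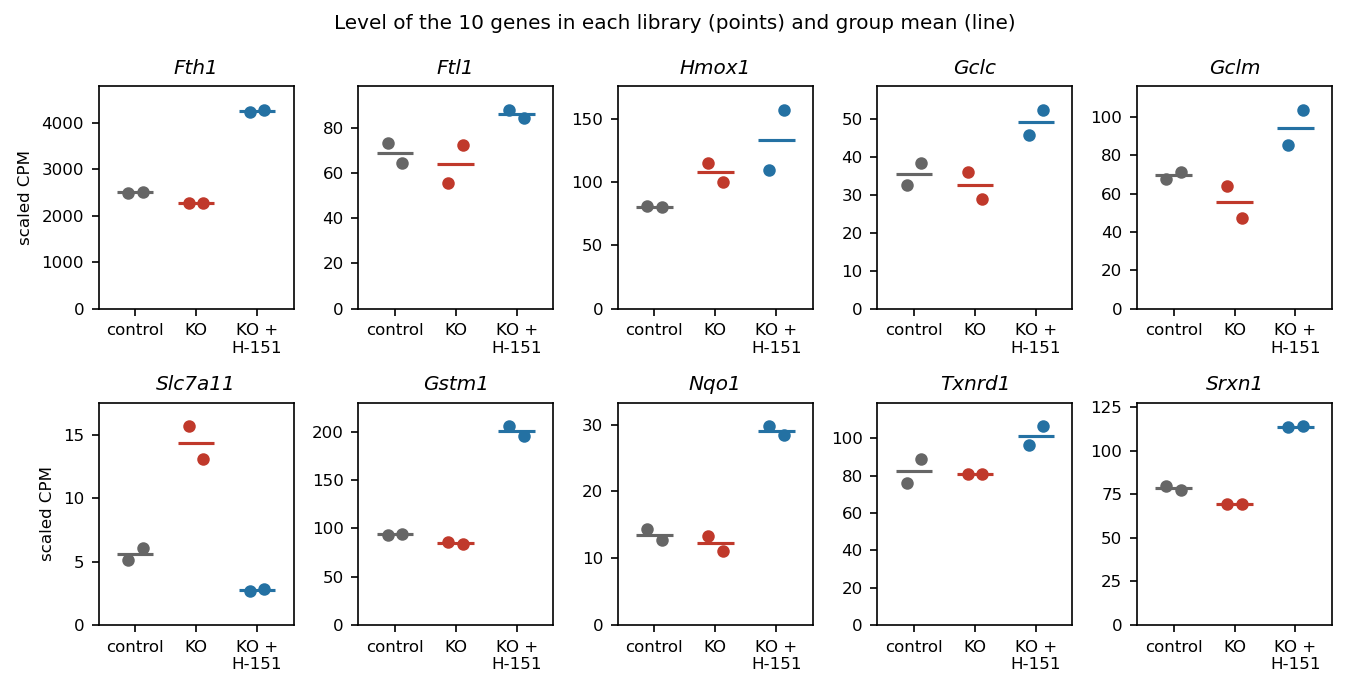
Level of each of the 10 genes in scaled CPM on linear axes from 0, with 1 point per library and a line at the group mean (2 libraries per group). Slc7a11 is highest in KO and lowest in KO + H-151, and in the other genes, Hmox1 apart, both KO + H-151 libraries lie above all 4 others.

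Ferritin heavy chain RNA (Fth1, the subunit that oxidises iron for storage, chromosome 19, 9980598 to 9985098 on the plus strand, 4 exons, GRCm38) measured 2484 and 2509.8 scaled CPM in control cells, 2278 and 2265 in KO cells and 4232 and 4273 with H-151. The H-151 libraries stood apart from all others, while both KO libraries lay a little below both controls. Mean Fth1 levels were 2497 ± 18.6 scaled CPM for control, 2272 ± 9.51 for KO and 4252 ± 28.8 for KO + H-151 (SD, n = 2). The log2 difference was 0.90 ± 0.07 (SE) in KO + H-151 against KO, or 1.87-fold (adjusted p = 4.12e-08), and 0.77 ± 0.07 against control, or 1.70-fold (adjusted p = 1.31e-06). KO against control gave -0.14 ± 0.07 (adjusted p = 0.171), a difference that passed under median, quantile and total-count scaling (adjusted p = 0.0491, 0.00966 and 0.00384).

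The light chain gene Ftl1, whose product builds the mineral core, lies on chromosome 7, 45457944 to 45459884, minus strand, 4 exons. Its libraries gave 73.4 and 64.6 in control cells, 55.5 and 72.4 in KO and 88.1 and 84.6 in KO + H-151. KO overlapped control, and the 2 H-151 libraries were the highest of the 6. Mean Ftl1 levels were 69.0 ± 6.21 scaled CPM for control, 63.9 ± 11.97 for KO and 86.3 ± 2.45 for KO + H-151 (SD, n = 2). The rise of 0.44 ± 0.11 over KO (1.35-fold, adjusted p = 0.0032) was lost without KO replicate 1, the lowest library (0.25), and with no variance trend. The rise of 0.32 ± 0.11 over control (1.25-fold, adjusted p = 0.0373) was lost without control replicate 2 or H-151 replicate 1. It was also lost with median scaling (adjusted p = 0.0618), quantile normalization, no variance trend or DESeq2. KO against control was -0.12 ± 0.11 (adjusted p = 0.427) and changed sign without KO replicate 1 (0.07). RefSeq lists 3 light chain pseudogenes, none of them in the table, and 2 heavy chain pseudogenes, of which Fth-ps3 had 2.78 and 2.59, 1.31 and 1.70, and 3.46 and 2.31 in control cells, KO and KO + H-151 (0.62 over KO, adjusted p = 0.0282), so the split of ferritin reads among copies is uncertain.

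Hmox1, which opens the heme ring to release iron, carbon monoxide and biliverdin, lies on chromosome 8, 75093621 to 75100589, plus strand, 5 exons. Control libraries had 80.8 and 80.3 scaled CPM, KO libraries 115 and 100.1, and KO + H-151 libraries 109 and 157. Both KO libraries exceeded both controls, and 1 H-151 library lay between the KO libraries. Mean Hmox1 levels were 80.6 ± 0.384 scaled CPM for control, 107 ± 10.4 for KO and 133 ± 33.8 for KO + H-151 (SD, n = 2). The rise in KO was 0.41 ± 0.12 (1.33-fold, adjusted p = 0.0159), and it was lost when control 1, control 2, KO 1 or KO 2 was left out (adjusted p = 0.0678, 0.0782, 0.22 and 0.0536) and with quantile or total-count scaling (adjusted p = 0.162 and 0.114). H-151 against KO gave 0.29 ± 0.12 (adjusted p = 0.0707), and it turned on the H-151 libraries: 0.55 without replicate 1 (adjusted p = 2.33e-05) and 0.03 without replicate 2 (adjusted p = 0.864). KO + H-151 exceeded control by 0.69 ± 0.12 (1.65-fold, adjusted p = 0.000504), a call held in all 18 alternatives.

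Slc7a11 encodes the cystine and glutamate exchanger xCT, which brings in the cystine that limits glutathione synthesis, on chromosome 3, 49892526 to 50443614, minus strand, 12 exons. Its values were 5.13 and 6.05 scaled CPM in control (72 and 84 reads), 15.7 and 13.1 in KO (180 and 154 reads) and 2.68 and 2.88 in KO + H-151 (41 and 46 reads). The 3 groups were separate, KO highest and KO + H-151 lowest. Mean Slc7a11 levels were 5.59 ± 0.655 scaled CPM for control, 14.4 ± 1.81 for KO and 2.78 ± 0.139 for KO + H-151 (SD, n = 2). Slc7a11 rose by 1.22 ± 0.17 in KO (2.58-fold, adjusted p = 3.39e-05) and fell by 2.02 ± 0.17 with H-151, to 0.193 of the KO level (adjusted p = 7.94e-08). KO + H-151 was below control by a log2 difference of -0.80 ± 0.17, at 0.497 of its level (adjusted p = 0.00283). Each of these calls held in all 17 alternatives that tested the gene.

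Glutamate cysteine ligase, the enzyme that makes the first bond of glutathione, consists of the catalytic subunit Gclc (chromosome 9, 77754535 to 77794485, plus strand, 16 exons) and the modifier subunit Gclm (chromosome 3, 122245557 to 122270732, plus strand, 7 exons). Gclc measured 32.5 and 38.3 in control cells, 35.9 and 29.0 in KO and 45.8 and 52.3 in KO + H-151, with control and KO overlapping and H-151 above both. Mean Gclc levels were 35.4 ± 4.05 scaled CPM for control, 32.4 ± 4.89 for KO and 49.1 ± 4.62 for KO + H-151 (SD, n = 2). Gclc rose by 0.59 ± 0.12 over KO (1.51-fold, adjusted p = 0.000683) and by 0.46 ± 0.12 over control (1.39-fold, adjusted p = 0.00832), the latter lost without control replicate 1 (adjusted p = 0.114). KO against control was -0.13 ± 0.12 (adjusted p = 0.44), and without KO replicate 2 it was 0.02.

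The modifier subunit followed a similar course with a deeper dip in KO. Gclm libraries gave 67.6 and 71.3 in control cells, 63.7 and 47.1 in KO and 85.3 and 104 in KO + H-151, with no overlap among the groups. Mean Gclm levels were 69.5 ± 2.56 scaled CPM for control, 55.4 ± 11.8 for KO and 94.5 ± 13.1 for KO + H-151 (SD, n = 2). The fall in KO of 0.34 on the log2 scale ± 0.12 (0.798-fold, adjusted p = 0.0392) was lost without control replicate 1 (adjusted p = 0.0911), control replicate 2 (adjusted p = 0.185) or KO replicate 2, the lowest library (adjusted p = 0.528). With H-151 Gclm rose by 0.77 ± 0.12 over KO (1.71-fold, adjusted p = 6.77e-05). Against control the rise was 0.43 ± 0.12 (1.36-fold, adjusted p = 0.0142), lost without control 1, control 2 or H-151 replicate 2 (adjusted p = 0.0975, 0.0538 and 0.088). Gclm shares its last 1000 bases with Gm17494 on the opposite strand, and since the strand setting of the counting is not given in the sources used here, their reads cannot be told apart.

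Gstm1, a glutathione S-transferase that attaches glutathione to electrophiles (chromosome 3, 108012255 to 108017973, minus strand, 8 exons), had 93.6 and 94.1 scaled CPM in control cells, 85.8 and 84.1 in KO and 206 and 195 in KO + H-151. Both H-151 libraries stood far above the other 4, and both KO libraries lay below both controls. Mean Gstm1 levels were 93.8 ± 0.386 scaled CPM for control, 84.9 ± 1.21 for KO and 200.5 ± 7.16 for KO + H-151 (SD, n = 2). The difference was 1.23 ± 0.07 over KO (2.36-fold, adjusted p = 3.51e-10) and 1.09 ± 0.07 over control (2.14-fold, adjusted p = 1.57e-08). In KO against control it was -0.14 ± 0.07 (adjusted p = 0.126), passing under median, quantile and total-count scaling (adjusted p = 0.0317, 0.00341 and 0.00225). Of 7 Gstm genes in RefSeq 5 were in the table, and the split of reads between these close copies is uncertain. Gstm2 went from 115 ± 2.52 (SD, n = 2) in control to 105 ± 4.63 in KO and 126 ± 3.72 in KO + H-151, and rose over KO by 0.26 (adjusted p = 0.00727, and 0.092 without KO replicate 1). Gstm4, Gstm5 and Gstm7 did not pass in any comparison, with differences over KO of 0.25, 0.14 and 0.51.

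Nqo1, a reductase that takes quinones past their reactive intermediate (chromosome 8, 107388225 to 107403206, minus strand, 6 exons), measured 14.3 and 12.8 in control cells, 13.3 and 11.1 in KO and 29.7 and 28.5 in KO + H-151. Control and KO overlapped and the H-151 libraries stood clear of them. Mean Nqo1 levels were 13.5 ± 1.10 scaled CPM for control, 12.2 ± 1.59 for KO and 29.1 ± 0.901 for KO + H-151 (SD, n = 2). Nqo1 rose by 1.19 ± 0.13 over KO (2.38-fold, adjusted p = 1.52e-06) and 1.05 ± 0.13 over control (2.15-fold, adjusted p = 2.13e-05), and KO against control was -0.14 ± 0.13 (adjusted p = 0.441).

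Txnrd1, the cytosolic thioredoxin reductase (chromosome 10, 82833951 to 82897712, plus strand, 14 exons), had 76.1 and 89.0 in control cells, 81.1 and 81.2 in KO and 96.4 and 106 in KO + H-151. KO lay between the controls, and H-151 lay above every other library. Mean Txnrd1 levels were 82.6 ± 9.11 scaled CPM for control, 81.2 ± 0.0099 for KO and 101 ± 7.12 for KO + H-151 (SD, n = 2). Its rise was the smallest of the 8 that passed over KO, 0.32 ± 0.08 (1.25-fold, adjusted p = 0.00699), and it was lost without KO replicate 1 or 2 (adjusted p = 0.0612 and 0.0611). Over control it was 0.30 ± 0.08 (1.23-fold, adjusted p = 0.0187), lost without control replicate 1 or H-151 replicate 2 (adjusted p = 0.237 and 0.0959). KO against control was -0.02 ± 0.08 (adjusted p = 0.884) and 0.09 without control replicate 2.

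Srxn1, the sulfiredoxin that restores over-oxidised peroxiredoxins, whose ARE-bearing promoter is printed above, lies on chromosome 2, 152105516 to 152111376, plus strand, with 2 exons. It measured 79.5 and 77.3 in control cells, 69.57 and 69.58 in KO and 113.5 and 114 in KO + H-151, 3 separate groups with little spread. Mean Srxn1 levels were 78.4 ± 1.62 scaled CPM for control, 69.6 ± 0.00848 for KO and 114 ± 0.361 for KO + H-151 (SD, n = 2). Srxn1 rose by 0.70 ± 0.07 over KO (1.64-fold, adjusted p = 6.67e-07) and by 0.53 ± 0.07 over control (1.45-fold, adjusted p = 4.68e-05). Its KO level was -0.17 ± 0.07 from control (adjusted p = 0.0815), a difference that passed under median, quantile and total-count scaling (adjusted p = 0.0213, 0.0027 and 0.00169).

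**Figure D3:**
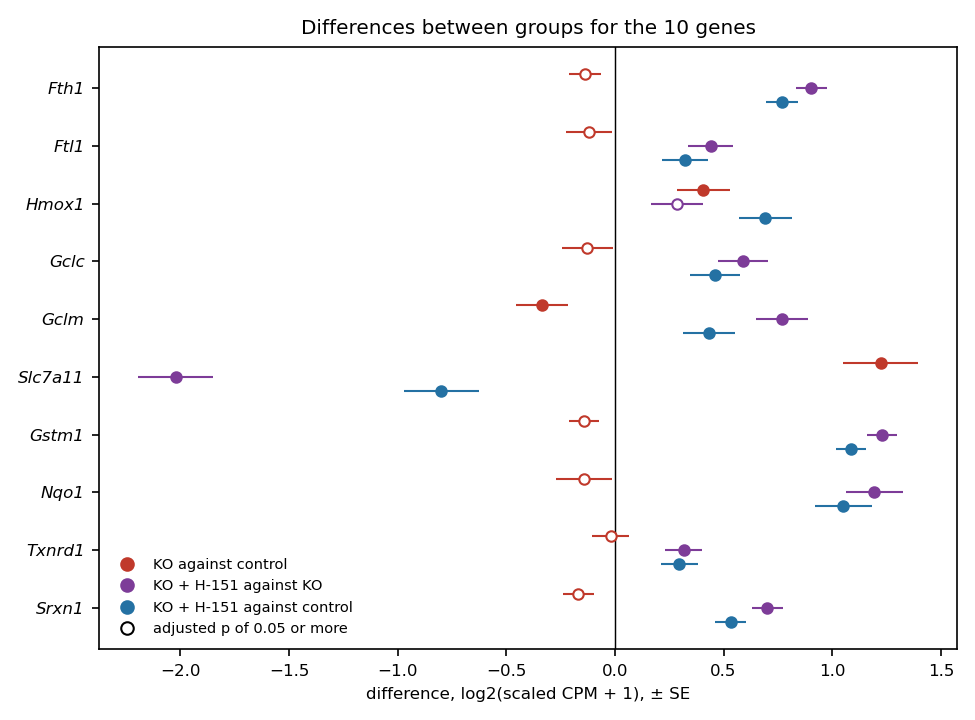
Difference in log2(scaled CPM + 1) with its SE for each gene in the 3 comparisons, where open points have an adjusted p of 0.05 or more. Fth1, Gstm1, Nqo1 and Srxn1 lie near 0 in KO against control and between 0.53 and 1.23 in both comparisons with H-151, and Slc7a11 has the reverse order.

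The 4 genes Gstm1, Fth1, Nqo1 and Srxn1 kept their call in all 18 alternatives in both H-151 comparisons, and Gclm and Gclc did in all 18 against KO. Over all 10 genes the median deviation from the control mean was -0.07 and -0.15 in the KO libraries and 0.40 and 0.56 in the KO + H-151 libraries. The genes of nearest pattern were sought among 10495 genes by the Euclidean distance between centred log2 profiles over the 6 libraries. Within the 10, Gstm1 and Nqo1 were closest (distance 0.197), followed by Fth1 and Srxn1 (0.259) and by Gclm and Gclc (0.275), while Slc7a11 was far from every other (2.35 to Txnrd1). Outside the 10, Prxl2a (0.151) and Alcam (0.165) came nearest to Gstm1. Nqo1 was nearest to Pcx (0.165) and to Alcam (0.171), which Gstm1 also had among its neighbours. For Fth1 the nearest were Atp6v0a1 (0.096), a subunit of the proton pump that acidifies lysosomes, and Mtus2 (0.111). Ftl1 had Abtb1 (0.116) and Timm21 (0.118) nearest. The closest pair of all was Srxn1 with Adipor2 (0.045), an adiponectin receptor, followed for Srxn1 by Aplp2 (0.117). Hmox1 lay near Cpne2 (0.206) and Them6 (0.244). Nearest to Gclm were Lrp5 (0.19) and Rrm2b (0.191). Gclc had the mitochondrial ribosomal RNA mt-Rnr2 (0.072) and Aldh9a1 (0.083) as neighbours. The neighbours of Txnrd1 were Dpysl2 (0.066) and Stim1 (0.071). Slc7a11 was nearest to Loxl3 (0.188), a lysyl oxidase of the collagen matrix, and to Peg10 (0.318). Distances are in log2 units.

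Among the genes that set NRF2 activity, the regulators, more passed upward in KO and more passed downward with H-151. The list holds both partners and repressors of NRF2, so a common direction is no measure of its activity. Of all genes 18.2% rose and 14.2% fell in KO, and 19.4% rose and 21.4% fell with H-151 over KO. Against control 11.5% were higher and 11.4% lower with H-151. The same shares apply to the counts of the lists below. Of 11 regulators 5 rose in KO (median 0.18) and 4 fell with H-151 (median -0.20), and 2 of those rises and 3 of those falls kept the call with each library left out. Nfe2l2 RNA was 271 ± 22.1 in control cells, 303 ± 18.5 in KO and 253 ± 8.93 in KO + H-151 (SD, n = 2), a fall with H-151 (-0.26, adjusted p = 0.00981) that was lost without KO replicate 1 (adjusted p = 0.152). Keap1 was 174 ± 2.12, 197 ± 1.31 and 158 ± 1.18, and its fall with H-151 passed (-0.32, adjusted p = 0.000781). Bach1 was 29.5 ± 0.866, 36.2 ± 2.64 and 35.8 ± 1.69, and did not pass with H-151 (-0.02, adjusted p = 0.914). The KO rises of Keap1 (0.18, adjusted p = 0.0424) and Bach1 (0.28, adjusted p = 0.0352) were lost without any 1 of the control or KO libraries, with adjusted p up to 0.178 and 0.242. Mafk, a small MAF partner of NRF2 and BACH1 named here from its values like the next 4, rose from 16.4 ± 1.51 to 67.2 ± 1.42 in KO and returned to 14.0 ± 0.561 with H-151, the same order of groups as Slc7a11 (1.97, adjusted p = 3.15e-10, then -2.19, adjusted p = 7.94e-11). Sqstm1, whose product p62 draws KEAP1 into autophagy, rose in KO (0.32, adjusted p = 0.000865), was -0.02 over KO with H-151 (adjusted p = 0.791) and was above control there (0.30, adjusted p = 0.00261). Nfe2l1, an NRF2 relative, also rose in KO (0.27, adjusted p = 0.0104, up to 0.152 with a library left out), Cul3, the ubiquitin ligase scaffold that KEAP1 uses, fell with H-151 (-0.36, adjusted p = 0.00131), and Maff was below control in KO + H-151 (-0.38, adjusted p = 0.0412, up to 0.399 with a library left out).

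Around Slc7a11, 14 further genes of glutathione synthesis and use were mixed: 5 rose and 3 fell in KO, and 4 rose and 3 fell with H-151, of which 1 rise in KO, and 1 rise and 2 falls with H-151, kept the call with each library left out. Slc3a2, the heavy chain that pairs with xCT, moved with it, from 295 ± 3.04 to 445 ± 1.06 in KO and 259.7 ± 3.12 with H-151 (0.59, adjusted p = 9.52e-07, then -0.78, adjusted p = 3.06e-08). Ggct, of the gamma-glutamyl cycle, was 7.09, 11.1 and 4.84, while glutaredoxin Glrx was 27.4, 19.7 and 35.6 and the secreted peroxidase Gpx3 539.6, 435 and 533 in control cells, KO and KO + H-151. Chac1, which degrades glutathione, was 20.7, 14.0 and 14.7, and Gpx1 was 474, 533 and 506. Gpx1 had the highest mean of the list over all 6 libraries but lay below Gpx3 in control cells and in KO + H-151. Left-out libraries ended the KO calls of Ggct, Glrx, Gpx3, Chac1 and Gpx1 (adjusted p up to 0.182, 0.0558, 0.108, 0.121 and 0.214) and the H-151 call of Gpx3 (up to 0.115), and quantile normalization turned the KO difference of Gpx1 negative.

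More glutathione S-transferases and genes of NADPH supply rose than fell with H-151. Of 17 further transferases tested (22 listed) 10 rose and Gsto1 fell over KO, with a median of 0.51, and 7 of those rises kept the call with each library left out. Microsomal Mgst1 went from 137 ± 13.1 in KO to 229 ± 26.4 (0.73, adjusted p = 7.92e-06), Gstt3 from 26.9 to 40.6, Gstt1 from 28.6 to 41.0, Gsta3 from 1.29 to 3.68 and Gstk1 from 11.3 to 17.4. Gstt3 was the 1 transferase that fell in KO (-0.31, adjusted p = 0.0234, up to 0.18 with a library left out), and Gsto1's fall with H-151 reached 0.137 in the same way. Of 7 genes of NADPH supply 5 rose over KO and 6 over control, and 3 and 4 of them kept the call with each library left out. The calls of Tkt and Me1 over KO ended without KO replicate 1 (adjusted p = 0.0574 and 0.0934) or KO replicate 2 (adjusted p = 0.217 and 0.0689), and those of Tkt and Me1 over control ended too (adjusted p up to 0.578 and 0.122). Tkt was 80.1 and 128 in the 2 H-151 libraries, and without the latter its call over KO ended too (adjusted p = 0.317), as that of Me1 did without the former (adjusted p = 0.0841). Those that kept it include Idh1 (182 in control cells, 212 in KO, 297 in KO + H-151), G6pdx (31.7, 37.2 and 52.3) and Taldo1 (113, 119.6 and 153). Idh1 also rose in KO (0.22, adjusted p = 0.027, up to 0.252 with a library left out).

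The 13 thioredoxin and peroxiredoxin genes besides Txnrd1 and Srxn1 showed no common direction with H-151, 4 rising and 4 falling over KO (median -0.08), 2 of each with the call kept whichever library was left out. Txnrd3 rose from 16.4 to 29.3, and Txnip, a thioredoxin inhibitor, from 147 ± 11.4 to 249.8 ± 70.8. Prdx6 fell from 264 to 201, Txn1 from 584 to 469 and Selenow from 72.4 to 53.6. In control cells Txnrd3, Txnip, Prdx6, Txn1 and Selenow measured 18.4, 239.5, 209.7, 422 and 44.9. In KO against control Txn1, Prdx1, Prdx2, Prdx6 and Selenow rose and Txnip fell. The KO rises of Prdx1 and Prdx2 did not keep the call with each library left out. Prdx1, the highest, was 537 in control cells, 639 in KO cells and 726 with H-151, and Prdx5 was 265, 239 and 213. The H-151 calls of Selenow and Prdx1 ended with a library left out (adjusted p up to 0.13 and 0.228). Among 19 other detoxification genes 10 rose and 4 fell over KO (8 and 4 with each library left out), with catalase (Cat) rising from 88.0 to 141 and Osgin1 from 1.03 to 4.92. Akr1b3 fell from 11.5 to 3.85, extracellular Sod3 from 138 to 90.3 and metallothionein Mt2 from 1249 to 854. In control cells Cat, Osgin1, Akr1b3, Sod3 and Mt2 measured 92.6, 3.51, 4.37, 154 and 1610. In KO against control 4 of the 19 rose and 6 fell. Of these, only the rise of Akr1b3 and the falls of Osgin1, Aldh1a1 and Mt2 kept the call with each library left out. Mt1 was 1838 in control cells, 1513 in KO cells and 1441 with H-151, and Aldh1a1 134, 70.3 and 79.5.

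Iron genes beside ferritin split, with 4 rising and 9 falling over KO among 22 tested (25 listed, median -0.13). The 4 rises and 7 of the falls kept the call with each library left out. Steap2 lost it without KO replicate 2 or H-151 replicate 1 (adjusted p = 0.0886 and 0.0713), and Pcbp1 (-0.16, adjusted p = 0.0493) lost it in 5 such fits (up to 0.233) and changed sign with quantile normalization (0.09) and total-count scaling (0.02). The exporter ferroportin (Slc40a1) rose from 24.9 ± 2.03 in KO to 82.6 ± 6.67 (1.69, adjusted p = 5.83e-10) and transferrin (Trf) from 54.9 to 82.3. The transferrin receptor Tfrc, named after its values were seen, rose from 43.5 ± 2.48 to 86.7 ± 8.38 (0.97, adjusted p = 6.83e-07). The mitochondrial importers Slc25a28 and Slc25a37 were 13.1 and 33.1 in control cells, 70.9 and 101.7 in KO and 11.3 and 36.2 in KO + H-151, with KO highest as for Slc7a11. Slc11a2 (48.4, 87.6 and 62.8) had the same order of KO above KO + H-151, the reductase Steap1 fell with H-151 from 9.43 to 4.73, and Pcbp2, the highest, did not pass (351, 353 and 320.4). Ncoa4, the receptor for ferritin breakdown, and Ireb2, which blocks ferritin translation, passed in no comparison and were picked out only once their values were known.

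Of 15 heme genes tested beside Hmox1 (16 listed) 5 rose and 2 fell over KO, and the 5 rises and 1 of the falls kept the call with each library left out. The biliverdin reductases, next in line after Hmox1, rose: Blvrb from 55.7 ± 5.38 to 122.6 ± 0.178 (1.13, adjusted p = 8.44e-09) and Blvra from 28.9 to 44.9. Alas1, the first enzyme of heme synthesis, went from 34.6 to 60.4 and the heme transporter Slc48a1 from 353 to 466. Cpox fell from 64.5 to 46.6 and Abcb10 from 32.9 to 23.0. In control cells Alas1, Slc48a1, Cpox and Abcb10 measured 43.1, 352, 78.7 and 17.0. Abcb10 was the call that ended (adjusted p up to 0.0693).

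**Figure D4:**
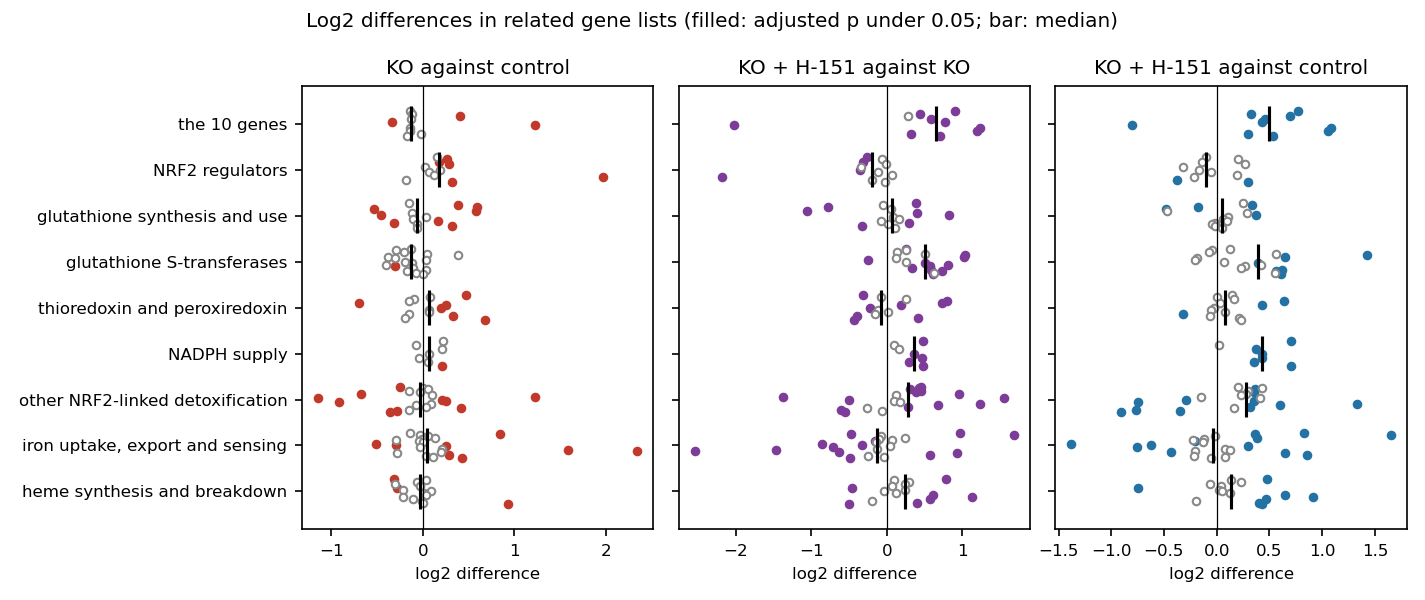
Log2 differences of the 10 genes and of 8 lists of related genes in the 3 comparisons, with 1 point per gene, filled where the adjusted p is under 0.05, and a bar at each median; the horizontal scales differ between panels. Under H-151 against KO the medians of the 10 genes and of the transferases are 0.65 and 0.51, and that of the regulators is -0.20.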

How the data were processed

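RNA of 6 libraries (3 groups of 2) was analysed. STAR 2.5.3a, featureCounts, edgeR and mm10 are listed in the submitters' processing notes; the gene annotation, strand setting and filters are not given in the sources used here. Each deposited value is a signal per gene: CPM by an effective library size, as the column sums and read steps show. All were whole multiples of 1 step per library (100.0% within 0.0006), so reads were recovered; 1 read equals 0.0625 to 0.0871 scaled CPM. The analysis had been planned for plain CPM, and the same test was kept.

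Values were transformed to log2(scaled CPM + 1), a scale that understates changes of low genes. Genes with at least 1 in 2 or more libraries were tested (13648; 58 were not) with limma 3.58.1 in R 4.3.3, with a mean per group and a variance trend (3 residual degrees of freedom, 15.7 after moderation), and Benjamini-Hochberg adjustment over all genes with a threshold of 0.05. The fit was tested on simulated data. A fold is a ratio of group means in scaled CPM. Alternatives included edgeR 4.0.16 and DESeq2 1.42.0 on the recovered reads.

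Members, lists and markers were chosen with earlier results of these data known. Of the regulators, Nfe2l2, Keap1 and Bach1 were to be named; in every other related list, the 3 genes of smallest p per comparison and the highest gene; and the Gstm and ferritin copies in the table. Other regulators, Tfrc, Tkt, Me1, Steap2, Pcbp1, Ncoa4 and Ireb2 were chosen after their values were seen. The 2 nearest genes in pattern had a mean of at least 5. Positions are from GENCODE on GRCm38, the build of mm10.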

Additional observations from a re-analysis of the deposited data

How the results depend on the processing

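Directions of the 10 genes held in both H-151 comparisons under all 18 alternative settings, Slc7a11 under the 17 that tested it. In KO against control 3 differences that had not passed changed sign: Txnrd1 was 0.091 without control replicate 2, Ftl1 0.07 without KO replicate 1 and Gclc 0.023 without KO replicate 2; with left-out libraries they ranged from -0.132, -0.308 and -0.277 up to these values. There the count of the 10 genes that rose (2) was 1 with a filter on a mean of 10, quantile normalization, total-count scaling, no variance trend or DESeq2. The count that fell (1) was 0 with that filter, no trend or DESeq2, 4 with median scaling, 4 with quantile normalization and 5 with total-count scaling. All genes lower (1938) numbered 1266 with the filter, 2987 with quantile normalization, 4054 with total-count scaling and 1217 with DESeq2. Without each library in turn, where a lone library was taken to vary like the other groups, 1 to 2 of the 10 rose, 0 to 1 fell and 1165 to 2186 genes were lower. Slc7a11, with a mean under 10, left the test under the filter, so 0 of the 10 fell in either H-151 comparison. In KO + H-151 against KO, genes higher (2643) were 1676 with the filter and 4770 with total-count scaling, and genes lower (2923) were 1930 with the latter. Ftl1 and Txnrd1 did not pass there with no trend. With left-out libraries 6 to 9 of the 10 rose. Against control, 5 of the 10 were higher with no trend (9 in the fit reported) and 937 genes lower (1562). The rises that did not pass with no trend were those of Ftl1, Gclc, Gclm and Txnrd1. Left-out libraries gave 6 to 9 of the 10 higher, 951 to 1373 genes higher and 924 to 1499 lower, both lowest without control replicate 2. Except where stated, the cause was not tested.

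Deviations of same-numbered libraries were only weakly correlated. The correlation was -0.068 for control and KO, 0.154 for control and KO + H-151, and -0.128 for KO and KO + H-151. With the replicate number as a block, 2 rose and 1 fell in KO, 8 and 1 with H-151 over KO and 9 and 1 over control; 2430 genes were higher and 1887 lower, then 2599 and 2864, and 1513 and 1500. A crossed block, with KO numbers exchanged and chosen after seeing the data, gave 9 and 1 over KO. Slc7a11, with 41 to 180 reads a library, has the least depth of the 10.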
